A study of Mus musculus with 8 samples.

Results

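The cytosolic ribosomal protein genes were taken from the deposited expression table by name: protein-coding rows named Rpl or Rps with a number, Rplp0 to Rplp2 or Rpsa, without pseudogene names and without the Rps6k kinases. The rule gave 83 of 25343 genes, and it left out 99 rows with a pseudogene name and 10 kinase rows. Of the 83 genes, 77 encode the standard proteins of the ribosome (the core genes, 46 of the large and 31 of the small subunit). The other 6 are paralogs or genes that share only the name: Rpl22l1, Rpl36al, Rpl7l1, Rps27l, Rps27rt and Rps19bp1. By name, 49 genes counted with the large and 34 with the small subunit. The table held RNA from cochlear hair cells, the sensory cells of hearing, sorted from mice by the reporter Atoh1-GFP. Wild-type mice (WT) were compared with mice lacking Ndp (Ndp KO), the gene of the secreted signalling protein norrin. Both genotypes carried the reporter, had a mixed background of C57BL/6 and 129, and were aged postnatal day 4 to 6. Each genotype had 4 libraries, and each library came from a pool of 12 to 20 sensory epithelia. The labels name neither the litters nor the sexes in a pool. The p-values below reflect library-to-library spread, part of which may be technical.

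A ribosome joins a small subunit, which reads the mRNA, to a large subunit, which forms the peptide bond. Each subunit is a scaffold of ribosomal RNA that holds 1 copy of most ribosomal proteins, and surplus free protein is degraded. Many ribosomal protein mRNAs begin with a C followed by pyrimidines, the terminal oligopyrimidine (TOP) motif, through which mTOR signalling controls their translation. The mRNAs are short and abundant, and they have left many processed pseudogenes in the mouse genome.

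The start site sequences came from RefSeq (GRCm38.p6), where 63 of the 83 genes were found by symbol, 9 of them with more than 1 start. An annotated start of C followed by 4 pyrimidines occurred in 14 of the 63 genes and in 3.01% of the 27025 symbols of the RefSeq table. The sequences below are shown because they carry this shared start, and Rps27 and Rps27rt also because their coding sequences are identical. Capitals mark the pyrimidine run that begins at the annotated start, after 15 bases of upstream sequence, and all are 5′ to 3′ on the gene's strand.
Rpl38, chr11:114668565-114668594, plus strand: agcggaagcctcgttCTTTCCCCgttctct
Rpl35, chr2:39005117-39005146, minus strand: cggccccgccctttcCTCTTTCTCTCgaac
Rpl15, chr14:18270972-18271001, minus strand: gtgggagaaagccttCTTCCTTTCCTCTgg
Rps6, chr4:86857353-86857382, minus strand: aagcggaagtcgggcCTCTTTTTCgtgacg
Rps10, chr17:27635230-27635259, minus strand: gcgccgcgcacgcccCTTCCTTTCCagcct
Rps18, chr17:33955651-33955680, minus strand: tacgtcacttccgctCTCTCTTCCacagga
Rps27, chr3:90213634-90213663, minus strand: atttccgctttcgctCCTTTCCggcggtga
Rps27rt, chr9:114982725-114982754, minus strand: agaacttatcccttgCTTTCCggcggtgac
After the pyrimidine run, Rps27 and Rps27rt went on with the same letters, while their upstream bases differed. A run of at least 8 pyrimidines within 50 bases of the start occurred in 51 of the 63 genes and in 39.3% of all symbols. The ETS family core CCGGAA, searched on both strands of the 300-base window that ends 50 bases into the transcript, occurred in 35 of the 63 genes and in 16.7% of all symbols. Among matches on the gene's own strand, with 1 start per gene, the 3 closest to the start are shown, with the motif in capitals. Matches on the other strand were not ranked.
Rpl26, chr11:68901558-68901587, plus strand: caacttacagaaCCGGAAgtcgcgtgtagt
Rpl11, chr4:136053370-136053399, minus strand: aaggccacggggCCGGAAgtctccctctct
Rpl31, chr1:39367847-39367876, plus strand: cctccccgtgacCCGGAAgttgtacggcta
The YY1 motif AAGATGG occurred in 10 of the 63 genes and in 7.28% of all symbols. The TATA box letters TATAAA occurred in 7 of the 63 genes and in 15.7% of all symbols. A match is a description of the letters and not a mapped binding site.

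The libraries held 35077950 to 48329827 reads, recovered from the deposited normalized counts as whole numbers. These may be counted reads or rounded estimates of them, which the values do not show, and for genes with near-identical copies an estimate depends on how shared reads were divided. Summed hair cell markers, 20 of 20 measured, ranged from 516163 to 634355 normalized counts in WT and from 555290 to 622887 in Ndp KO. Summed supporting cell markers ranged from 249331 to 466857 and from 310054 to 397285. Median log2 differences, Ndp KO minus WT, were 0.11 and -0.14 for these lists. They were 1.79 for macrophage markers (11 of 12 positive) and 1.13 for endothelial markers (6 of 7 positive). Mesenchyme and fibrocyte markers had 0.27 (10 of 13 positive), and glia and neuron markers 0.30 (6 of 9 positive). Cell cycle genes had 0.69 (12 of 15 positive). Of all genes tested, 47.5% had a negative difference. For stress and dissociation genes the median was -0.63 (10 of 12 negative). None of these genes was called by limma, and DESeq2 called 1 mesenchyme and fibrocyte marker. In the check of the labels, Ndp had 174, 90.4, 114 and 206 normalized counts in WT 1 to 4 and 10.5, 22.6, 66.8 and 45.1 in Ndp KO 1 to 4. Each Ndp KO library lay below each WT library, but limma did not call the gene (log2 difference -2.20 ± 0.56 SE, adjusted p = 0.895 over 18203 genes). All 83 ribosomal protein genes passed the minimum of 10 normalized counts in 4 libraries, and the lowest core value rested on 68 reads.

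Ribosomal protein mRNAs took 1.17, 0.772, 0.977 and 1.87% of the reads in WT 1 to 4 and 1.00, 1.12, 0.877 and 1.13% in Ndp KO 1 to 4. The 83 genes thus took about 1% of most libraries, and WT 4 stood above the other 7. The share was 1.20 ± 0.475% in WT and 1.03 ± 0.119% in Ndp KO (SD, n = 4 each), so the genotypes differed by less than the spread within WT. Without WT 4, the WT share was 0.973 ± 0.199% (SD, n = 3). Counting error was small beside this spread, since the 95% Wilson interval of the WT 4 share ran from 1.86 to 1.87%.

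Levels of single genes are compared here per length, as normalized counts per 1000 bases of coding sequence, averaged over the 8 libraries. The core median was 10429. The highest core gene was Rpl41, which encodes the shortest ribosomal protein, at 148427 with a coding length of 75 bases. Its normalized counts were 11593, 5622, 9865 and 21378 in WT 1 to 4 and 8700, 11339, 8578 and 11981 in Ndp KO 1 to 4. Rps29 followed at 28176 per 1000 bases and Rps14 at 27570, both proteins of the small subunit. The lowest core genes were Rps12 at 442, Rpl12 at 634 and Rpl5 at 1496. These 3 genes all had near-identical copies with more signal than their own row, as described further on. Coding length leaves out untranslated bases, so the level of a gene as short as Rpl41 is overstated on this scale.

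The acidic stalk of the large subunit, which recruits translation factors, is made of Rplp0, Rplp1 and Rplp2. Rplp0 (ENSMUSG00000067274, chromosome 5, 115559467 to 115563727, mm10) had 14204, 12252, 10838 and 20060 normalized counts in WT 1 to 4 and 13452, 13939, 12314 and 13644 in Ndp KO 1 to 4. Rplp1 had 8604, 4276, 7404 and 18857 in WT and 7644, 8190, 7089 and 9206 in Ndp KO. Rplp2 had 4020, 1859, 3387 and 8133 in WT and 3405, 3494, 2798 and 4028 in Ndp KO. All 3 were highest in WT 4, and every Ndp KO library lay within the WT range. Per 1000 coding bases the level of Rplp1 was 26049, that of Rplp0 14551 and that of Rplp2 11276.

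Rps2, a small subunit protein near the mRNA entry channel (ENSMUSG00000044533, chromosome 17, 24718116 to 24721929, plus strand), had 11656, 9429, 10565 and 23037 normalized counts in WT 1 to 4. In Ndp KO 1 to 4 it had 9961, 12010, 9051 and 11896. WT 4 again stood alone above the other libraries, and the remaining values of both genotypes were interleaved. Rpsa, which also binds laminin as a cell surface receptor precursor, had 9290, 6629, 7921 and 14654 in WT and 7107, 9022, 7100 and 7981 in Ndp KO. Rps3, a protein of the mRNA entry site, had 12328, 8685, 10533 and 16088 in WT and 9820, 11685, 9322 and 11477 in Ndp KO. Rps6, the S6 kinase substrate whose start is shown above, changed less between libraries, with 11355, 9097, 8380 and 13815 in WT and 10288, 11307, 8856 and 10164 in Ndp KO. In all 3 genes WT 4 was the highest library and the Ndp KO values lay inside the WT range.

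The same order of libraries ran through nearly all members. Each gene's log2 value, log2(normalized count + 1), was set against its own mean over the 8 libraries. In WT 4, 82 of 83 genes lay above their own mean, against 51.2% of all genes tested, with a median deviation of 0.91. In WT 2 only 4 genes did (Rpl29, Rpl3, Rpl4 and Rps12), against 53.5% of all genes, with a median of -0.54. In WT 3 the count was 2 genes, against 51.8%, and the median was -0.23. WT 1 had 74 genes above, against 52.4%, and a median of 0.15. The 4 Ndp KO libraries had 15, 61, 0 and 68 genes above their means, against 53.4, 53.9, 53.6 and 55.1% of all genes, with medians of -0.10, 0.04, -0.28 and 0.09. Both genotypes thus held libraries with most members above and libraries with most members below their means. Most members have short transcripts. Among the 2268 genes outside the set with a median transcript under 1000 bases, 65.8, 29.4, 37.7 and 79.6% lay above in WT 1 to 4. In Ndp KO 1 to 4 the shares of these short genes were 47.2, 61.8, 45.5 and 56.7%.

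**Figure D1:**
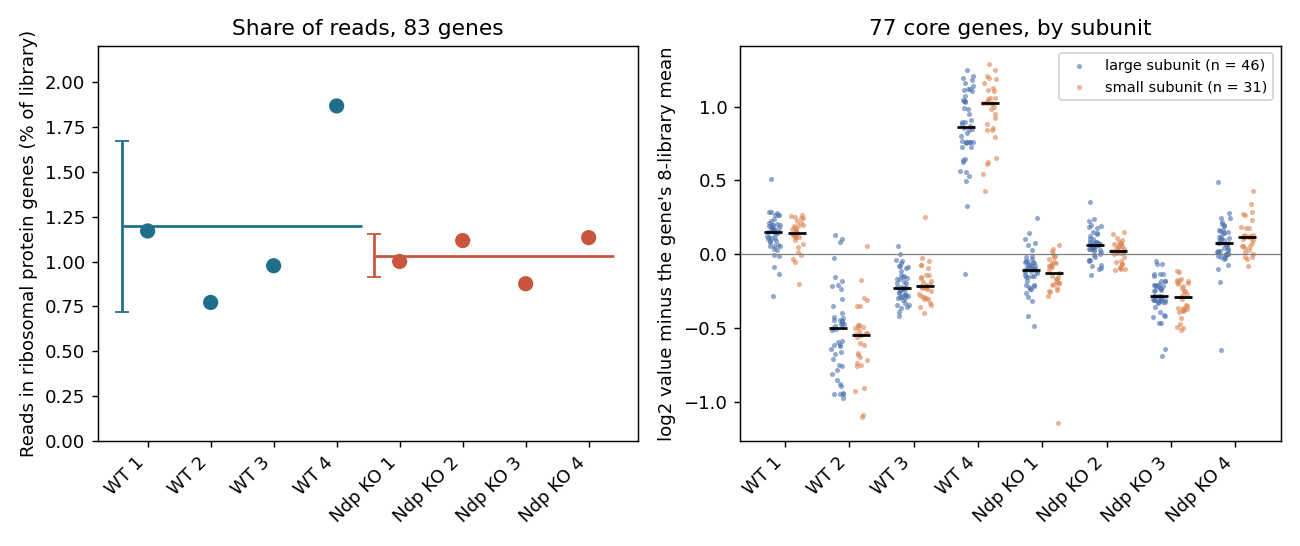
Left, the share of each library's reads in the 83 ribosomal protein genes (percent), 1 point per library, with the mean (line) and SD (bar) of each genotype, n = 4. Right, each of the 77 core genes' log2 value minus its own 8-library mean, by library and subunit, with medians as black bars; both subunits are highest in WT 4 and lowest in WT 2.

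WT 4 was the highest of the 8 libraries for 81 of the 83 genes, against 21.2% of all genes tested. The other 2 genes were highest in WT 1 (Rpl7l1) and Ndp KO 2 (Rpl4), where 10.9 and 7.37% of all genes were highest. WT 2 was the lowest library for 66 genes, against 15.8% of all genes. Ndp KO 3 was the lowest for 9 genes, WT 3 for 5 and Ndp KO 1 for 3, against 10.2, 15.1 and 10.3%. The core median in WT 4 was 2.05 times the mean of the other 7 libraries, from 0.897 for Rpl4 to 2.70 for Rps28. The ratio passed 1.5 in 77 members and 2 in 42. The highest library exceeded the lowest by a median of 2.83-fold over the members, from 1.33-fold for Rpl4 to 5.12-fold for Rps21. Pearson r with the median of the other core genes is a description over 8 libraries, which share 1 size factor each. It leans on WT 4, whose median deviation of 0.91 stood apart from the next highest, 0.15. The r was not counted over all genes tested. Of the 83 genes, 72 had an r above 0.9, and 1 gene had an r under 0.5.

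That gene was Rpl4, a long protein of the peptide exit tunnel, chosen here after its values were seen. It had 17520, 19335, 18321 and 16096 normalized counts in WT 1 to 4 and 18027, 20060, 15088 and 17310 in Ndp KO 1 to 4. WT 4, the library with most ribosomal protein mRNA, held the least Rpl4 of the WT libraries, and r with the other core genes was -0.35. At 1257 bases Rpl4 has the longest coding sequence of the members. Rpl3, the other long protein of the large subunit, with 1209 coding bases, had an r of 0.65. Rpl7l1, a paralog of Rpl7, was highest in WT 1 (5267 normalized counts) and had 4885 in WT 4. Rps19bp1, a nucleolar partner of Rps19 rather than a ribosomal protein, had 854, 606, 799 and 1005 in WT and 880, 858, 626 and 849 in Ndp KO. Both varied less between libraries than most core genes, with WT 4 at 1.09 and 1.28 times the mean of the other 7.

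**Figure D2:**
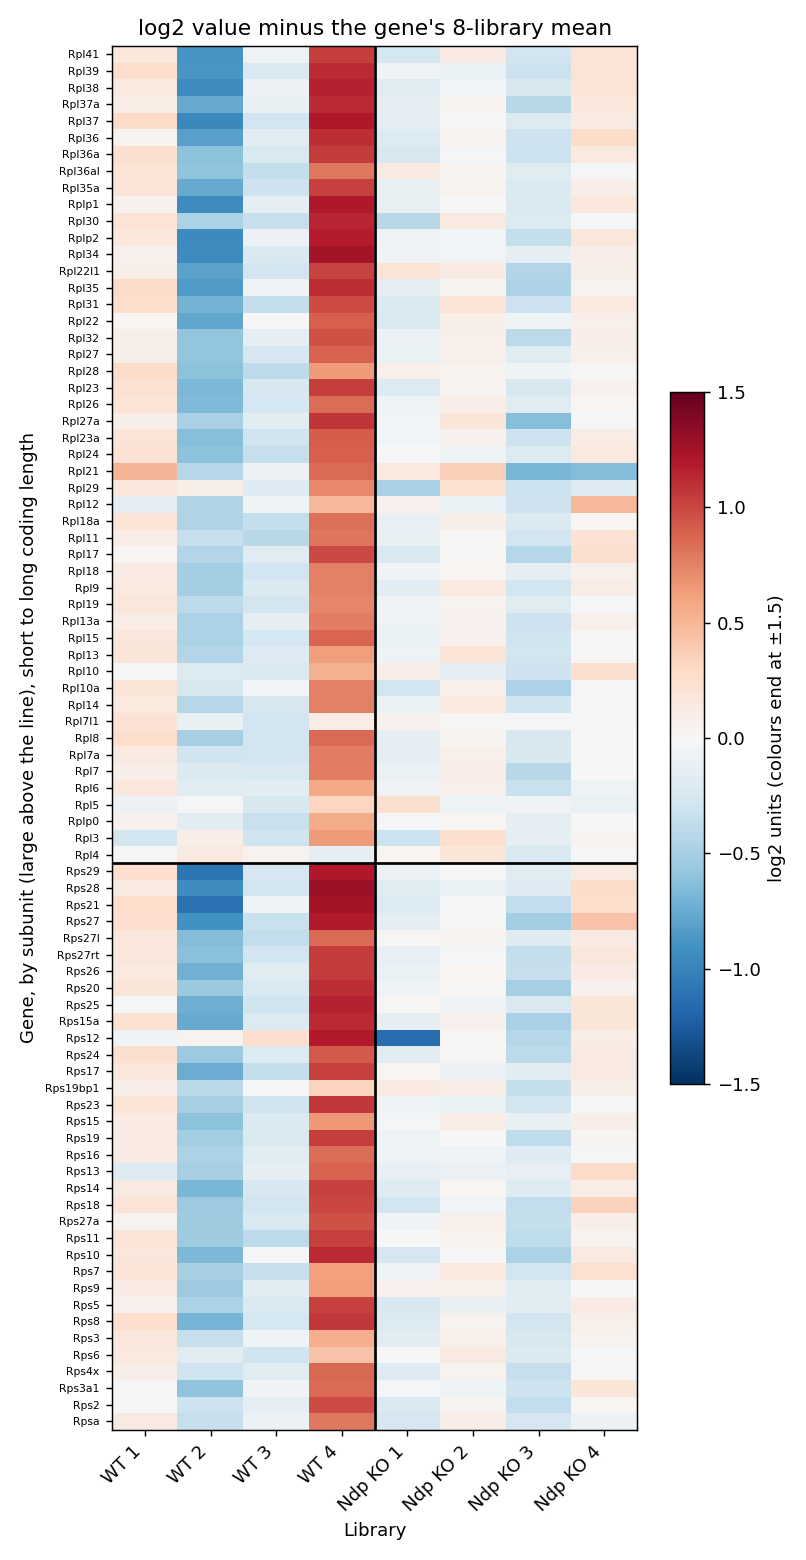
Each row is 1 of the 83 genes and each column 1 library; colour is the log2 value minus the gene's 8-library mean. Large subunit genes stand above the black line and small subunit genes below it, from short to long coding sequence; the columns WT 4 and WT 2 carry the strongest colours, which fade toward the longest genes, and Rpl4 is nearly flat.

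The size of a gene's deviation went with its length. Over the 77 core genes, Spearman's rho between coding length and the deviation was -0.79 in WT 4 and 0.83 in WT 2. This is a correlation across genes of the same libraries, which are not independent replicates. The 39 core genes with a coding sequence of up to 456 bases had a median deviation of 1.06 in WT 4 and -0.72 in WT 2. The 38 longer ones had 0.76 and -0.44. Among the genes outside the set, 2268 genes with a median transcript under 1000 bases had median deviations of 0.13, -0.31, -0.16 and 0.52 in WT 1 to 4. In Ndp KO 1 to 4 they had -0.02, 0.07, -0.03 and 0.04. The 3988 genes with transcripts of at least 4000 bases had -0.15, 0.13, 0.23 and -0.25 in WT 1 to 4. Of the ribosomal protein genes, 65 of 83 had a median transcript under 1000 bases. Mitochondrially encoded mRNAs were also highest in WT 4, 13 of 13, with shares of reads of 2.04, 1.04, 1.24 and 3.08% in WT and 1.48, 1.47, 1.37 and 1.63% in Ndp KO. Transcript length and mitochondrial mRNA thus moved with the ribosomal protein signal, and their part in it was not tested. In bulk samples such as these, fewer cells of a type and less RNA per cell cannot be told apart.

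**Figure D3:**
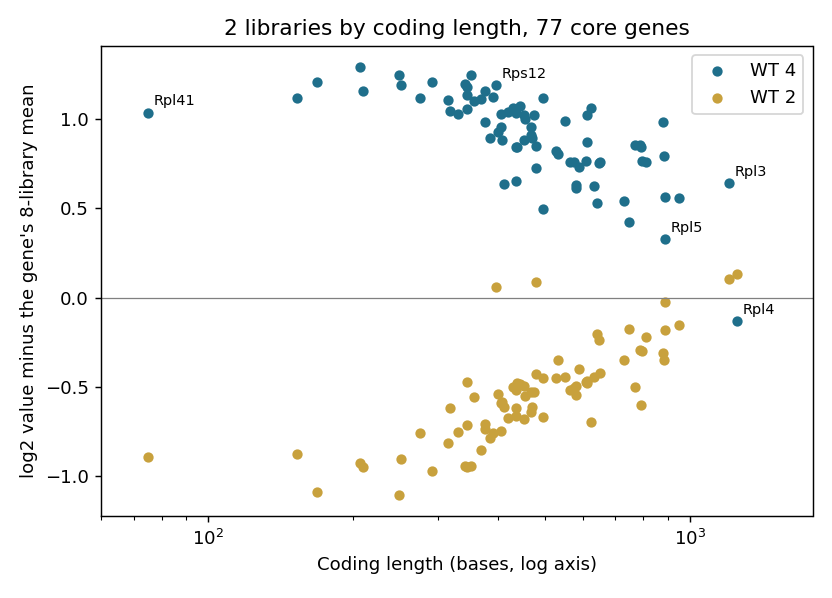
Each point is 1 of 77 core genes: coding length (bases, log axis) against its log2 value minus its 8-library mean, in WT 4 (blue) and WT 2 (yellow). The deviations of both libraries shrink toward 0 as coding length grows, and Rpl4, the longest, lies below 0 in WT 4.

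The large and the small subunit moved together. Summed normalized counts of the 46 large subunit genes were 267835, 185417, 213317 and 429681 in WT 1 to 4 and 227793, 262353, 206174 and 256029 in Ndp KO 1 to 4. Those of the 31 small subunit genes were 177552, 114448, 141910 and 305916 in WT and 151292, 166501, 135103 and 174127 in Ndp KO. The highest library exceeded the lowest by 2.32-fold for the large and 2.67-fold for the small subunit. The ratio of small to large was 0.663, 0.617, 0.665 and 0.712 in WT and 0.664, 0.635, 0.655 and 0.680 in Ndp KO. It was therefore far steadier than either sum, and it was highest in WT 4 and lowest in WT 2. As a mean log2 value, small minus large was -0.01 ± 0.07 in WT and -0.04 ± 0.05 in Ndp KO (SD, n = 4 each), a difference within the spread of either genotype.

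No ribosomal protein gene passed the test between the genotypes. In limma over all 18203 genes, 0 of 83 were called at an adjusted p of 0.05, where 0% of all genes were called higher and 0.00549% lower in Ndp KO. At an unadjusted p of 0.05 it was again 0 of 83, where 3.1% of all genes passed as higher and 2.47% as lower. The quasi-likelihood test of edgeR and DESeq2, run on the recovered reads, also called 0 of 83, with 0 at an unadjusted p of 0.05 in both. Over all genes, edgeR called 0% of 18174, with 4.55% at an unadjusted p of 0.05, and DESeq2 called 0.136% of 25078, with 6.09%. No member had genotypes that did not overlap, where 1.46% of all genes did so as higher and 1.58% as lower in Ndp KO. In the authors' deposited table the smallest adjusted p among the members was 0.885, for Rps12.

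The log2 differences, Ndp KO minus WT, were negative for 77 members and positive for 6 (Rpl12, Rpl28, Rpl5, Rpl7l1, Rps15 and Rps7). Of these 6, only Rpl7l1 and Rps15 stayed positive once near-identical copies were added, as described further on. Of all genes tested, 47.5% were negative. The median was -0.12 over the members and 0.02 over all genes, with a median SE of 0.27 per member. The large subunit had a median of -0.11 and the small subunit -0.15. This lean rested on WT 4: without it 76 members were positive and 7 negative, with a median of 0.15, where 52.8% of all genes were positive and 47.2% negative. Within the pair of libraries that share a title date, WT 2 and Ndp KO 2, Ndp KO was higher for 81 of 83 members, with a median of 0.61. Over the other 6 libraries it was higher for 2 of 83, with a median of -0.39. The direction therefore differed between this pair, with 1 library per genotype, and the rest. The pair held WT 2, the lowest library for 66 members, and the rest held WT 4, the highest for 81. Date and single libraries cannot be told apart here.

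**Figure D4:**
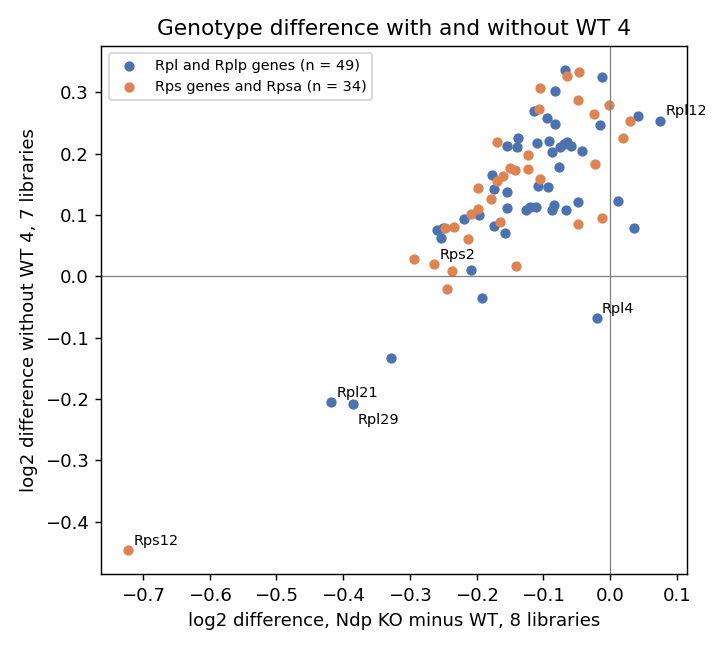
Each point is 1 of the 83 genes: the log2 difference, Ndp KO minus WT, over 8 libraries (horizontal) against the same without WT 4 (vertical). Most points lie left of 0 and above 0, so the sign turns when WT 4 is left out; Rps12, Rpl21 and Rpl29 are among the 7 that stay negative.

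The smallest p-values belonged to Rps12, Rpl29 and Rpl10a. Rps12 (ENSMUSG00000061983, chromosome 10, 23785183 to 23787275, minus strand) had 154, 166, 190 and 365 normalized counts in WT 1 to 4 and 71.7, 162, 118 and 173 in Ndp KO 1 to 4. Its log2 difference was -0.72 ± 0.38 (SE; limma adjusted p = 0.916, unadjusted 0.0854). Ndp KO 1 was the lowest and WT 4 the highest library, and the genotypes overlapped. Rpl29 had 2615, 2491, 2052 and 3880 in WT and 1675, 2744, 1880 and 2059 in Ndp KO, a difference of -0.39 ± 0.22 (adjusted p = 0.917). Rpl10a had 3698, 2773, 3179 and 5501 in WT and 2674, 3452, 2361 and 3305 in Ndp KO, a difference of -0.33 ± 0.22 (adjusted p = 0.934). The next in the large subunit were Rpl21 at -0.42 ± 0.32, Rpl6 at -0.19 ± 0.18 and Rpl7 at -0.21 ± 0.22. In the small subunit they were Rpsa at -0.24 ± 0.22, Rps2 at -0.26 ± 0.25, Rps4x at -0.24 ± 0.23 and Rps10 at -0.29 ± 0.32. Every one of these differences was smaller than 2 SE. Their size rested on single libraries: without WT 4 they became -0.45 for Rps12, -0.21 for Rpl29, -0.13 for Rpl10a, -0.21 for Rpl21, -0.04 for Rpl6 and -0.02 for Rpsa, and just above 0 for Rpl7, Rps2, Rps4x and Rps10. Without Ndp KO 1, Rps12 was at -0.46. Without WT 2, the differences grew to -0.63 for Rpl21, -0.32 for Rpl7, -0.57 for Rps10, -0.41 for Rps2, -0.37 for Rps4x and -0.40 for Rpsa. Without WT 3, Rpl7 was at -0.32. Without Ndp KO 3, Rpl21 was at -0.26, Rpl6 at -0.11, Rpl7 at -0.11 and Rps10 at -0.19, and without Ndp KO 4 Rpl21 was at -0.27.

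Many reads of these genes could be placed at more than 1 locus. In GENCODE vM21, 239 other rows of the table had a transcript at least 95% identical to the coding sequence of a member over at least 80% of it. They were copies of 73 members, 208 of them processed pseudogenes and 16 annotated as protein coding. Copies that are themselves members were not counted here, so Rps27rt, which held 3.52 times the signal of its identical relative Rps27, is described with the paralogs. In 7 members the copies outside the set together held more signal than the gene. Rpl5, which forms the particle with Rpl11 and the ribosomal RNA called 5S that stabilises p53, had a mean of 1333 normalized counts. Its copy Gm15500 on chromosome 7, identical over the whole coding sequence, had 10999.8. Rpl5 alone had 1247, 1300, 1120 and 1658 in WT 1 to 4 and 1566, 1255, 1278 and 1236 in Ndp KO 1 to 4, while Gm15500 had 11705, 9314, 9176 and 17349 and 9172, 11306, 9243 and 10734. The copy followed the order of libraries seen in most members and Rpl5 followed it less, with an r of 0.58 with the other core genes. Once copies were added to every member, its r with the median of all other members was 0.96.

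Rpl12, of the stalk base, had 9.66 times its own signal in its copies, mostly in Gm10275 on chromosome 10. Rps12 had 6.19 times, mostly in Rps12-ps3 on chromosome 19, and Rpl21 3.38 times. The largest Rpl21 copy by signal was BC004004 on chromosome 17, annotated as protein coding, with 3476 to 4656 normalized counts by library. Its transcript was 98.5% identical over the Rpl21 coding sequence. The whole row was counted, so it can hold reads from outside the matching stretch, and the share of such reads was not tested. Rpl10, an X-linked protein of the last step of large subunit assembly, had 2.64 times its own signal in its copies, mostly in Rpl10-ps3. Rpl27 had 1.31 times and Rpl27a 1.07 times. Reads of such genes cannot be assigned with certainty, so the levels and differences of these 7 genes are uncertain. With these copies added, and Rps27rt added to Rps27, the lowest core level per 1000 coding bases rose from 442 to 3176 (Rps12), and the ratio of highest to lowest fell from 336 to 50.7. Rps27 then stood at 12853, and without Rps27rt it was the lowest core gene at 2844.

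Rpl3 and its copy Rpl3-ps1 were high in different libraries. Rpl3 (ENSMUSG00000060036, chromosome 15, 80077791 to 80091868, minus strand), which lies near the peptidyl transferase centre, had 12493, 16300, 12354 and 23690 normalized counts in WT 1 to 4 and 12166, 17945, 13826 and 15661 in Ndp KO 1 to 4. Rpl3-ps1, a processed pseudogene on the X chromosome that is 99.8% identical, had 4331, 0, 2550 and 0 in WT and 3271, 6.87, 7.22 and 722 in Ndp KO. The libraries with much Rpl3-ps1 (WT 1, WT 3 and Ndp KO 1) were the 3 with the least Rpl3. Summed with all its copies, Rpl3 had 16826, 16310, 14910 and 23709 in WT and 15448, 17964, 13841 and 16390 in Ndp KO. Its r was then 0.87 with the median of all other members, summed in the same way. Without copies it was 0.65 with the other core genes. Of the 49 copies with a mean above 100 normalized counts, 8 differed more than 20-fold between libraries, among them Rps3a3, Gm6472 of Rps7, Rps13-ps1 and Rpl34-ps1, named after their values were seen. Gm6472 had 584, 417, 1526 and 2104 in WT and 51.7, 441, 0 and 0 in Ndp KO. The Rpl21 copies Gm10240 and Gm13370, on chromosomes 15 and 2, both had 1347, 743 or 742 and 893 in WT 1 to 3, nearly the same number in each library.

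**Figure D5:**
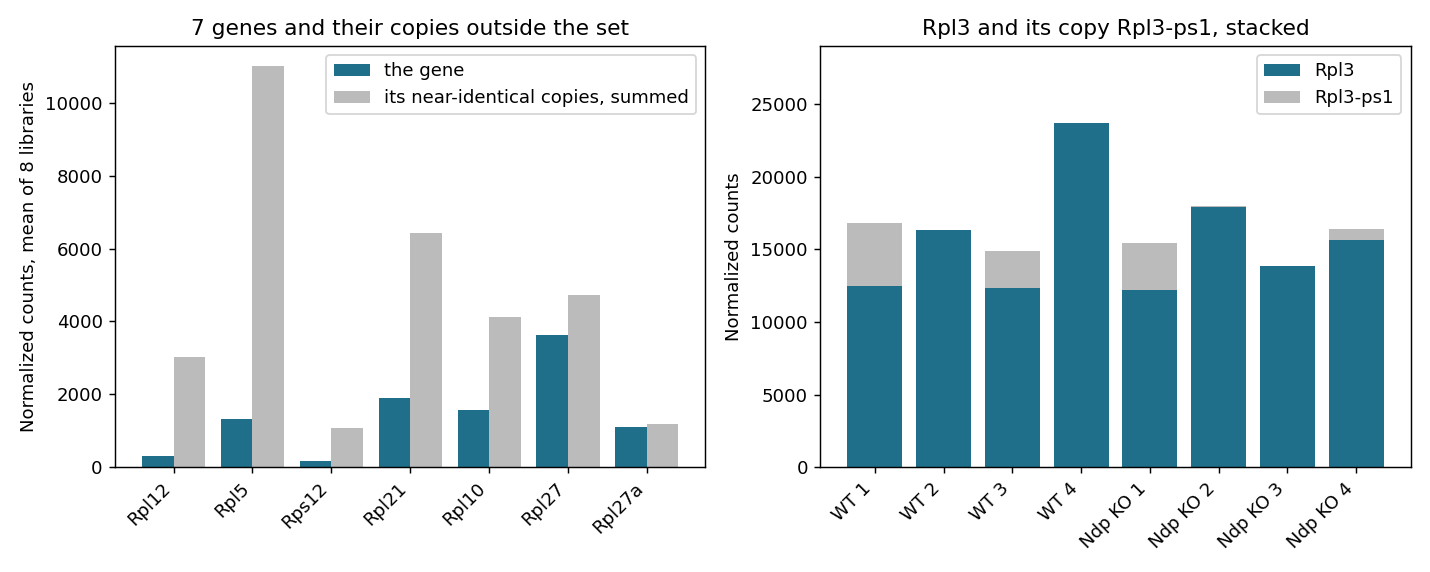
Left, mean normalized counts over 8 libraries of the 7 genes (blue) whose near-identical copies outside the set (grey, summed) held more signal. Right, normalized counts of Rpl3 (blue) with those of its copy Rpl3-ps1 (grey) stacked on top, by library; the grey part is large in WT 1, WT 3 and Ndp KO 1, where the blue part is lowest.

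With every member summed with its copies outside the set before the fit (Rps27 and Rps27rt stayed separate), limma again called 0 of 83, with 0 at an unadjusted p of 0.05. The difference of Rps12 became -0.31 ± 0.34 (adjusted p = 0.965) and that of Rpl21 -0.05 ± 0.19 (adjusted p = 0.995). The Rpl21 sum includes the whole row of BC004004, whose own difference was -0.0049, so it is not a measure of Rpl21 reads alone. The differences were now negative for 81 members and positive for 2 (Rpl7l1 and Rps15), with a median of -0.14. Rpl12 (-0.04), Rpl28 (-0.03), Rpl5 (-0.17) and Rps7 (-0.27) had turned negative. Now 79 members had an r above 0.9 with the median of all other members, and WT 4 remained the highest library for 81. The count of 72 without copies took only the other core genes as reference, so these counts differ in reference as well. Rpl4 again stood apart, with an r of -0.35. The 239 copies outside the set together held 13.6 to 15.6% as much signal as the members, by library. Rows with a pseudogene name alone held 6.41 to 8.02% as many reads as the members.

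Of the paralogs, Rpl22l1, Rpl36al, Rps27l and Rps27rt were highest in WT 4 and lowest in WT 2, unlike Rpl7l1, described above. Rps27rt, an intronless copy on chromosome 9 whose coding sequence is 100% identical to that of Rps27, had 2681, 1542, 1948 and 4930 normalized counts in WT and 2188, 2349, 1857 and 2665 in Ndp KO. Rps27 itself (chromosome 3) had 780, 349, 519 and 1495 in WT and 589, 662, 458 and 880 in Ndp KO. Their reads cannot be told apart within the coding sequence, so the split between them is uncertain, while both rows were highest in WT 4 and lowest in WT 2. Rps27l, a p53 target that is 76.2% identical to Rps27, had 3767, 2134, 2602 and 6017 in WT and 3400, 3445, 2935 and 3646 in Ndp KO, more signal than both rows taken singly. Rpl22, an RNA-binding protein of the large subunit, had 1609, 914, 1574 and 2924 in WT and 1340, 1667, 1506 and 1659 in Ndp KO. Its paralog Rpl22l1 had 1689, 914, 1308 and 3219 and 1833, 1731, 1176 and 1686, a like amount. Rpl36al had 3363 ± 1504 in WT and 3108 ± 282 in Ndp KO (SD, n = 4 each), above its X-linked relative Rpl36a at 2015 ± 1061 and 1586 ± 235. None of these paralogs was called.

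The 4 X-linked members (Rpl10, Rpl36a, Rpl39 and Rps4x) were all highest in WT 4 and all had negative log2 differences, with a median of -0.18 and 0 called. Among all 83 members, 81 were highest in WT 4 and 77 had negative differences, with a median of -0.12, so neither trait was particular to the X-linked members. Rps4x had 7500, 5713, 6165 and 12687 in WT and 6116, 7277, 5518 and 7078 in Ndp KO. Rpl39, of the peptide exit tunnel, had 2560, 1160, 1826 and 4638 in WT and 2057, 1987, 1702 and 2455 in Ndp KO. The sexes of the pools are not given. The 18 members whose loss of 1 copy causes Diamond-Blackfan anaemia in people, among them Rps19, Rpl5 and Rpl11, had a median difference of -0.09, with 0 called. In WT 4, 18 of 18 were highest, against 81 of all 83 members. Rps19 had 8156, 5248, 6472 and 15395 in WT and 7129, 7515, 5759 and 7752 in Ndp KO. Rpl11 had 2486, 1802, 1719 and 4008 in WT and 2123, 2330, 1885 and 2675 in Ndp KO. Rpl38, known for its part in the translation of Hox mRNAs in mouse embryos, had 2548, 1193, 2172 and 5130 in WT and 2028, 2237, 1940 and 2628 in Ndp KO. Rpl24, of a bridge between the subunits, had 5173, 2920, 3518 and 8304 in WT and 4434, 4228, 3862 and 4946 in Ndp KO. In Rpl39, Rps19, Rpl11, Rpl38 and Rpl24 the Ndp KO values lay within the WT range, while Rps4x in Ndp KO 3 lay below the lowest WT library.

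The 14 members with the TOP start had a median deviation of 1.08 in WT 4 and -0.71 in WT 2. The 49 other matched members had 0.84 and -0.51. The 35 members with CCGGAA had 0.98 in WT 4 and the 28 without it 0.85. The coding lengths of these groups were not matched.

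Genes outside the set that share the ribosome or its control were read from lists. Of 21 other TOP genes, such as Eef1a1, Eef2 and Tpt1, 21 lay above their own mean in WT 4 and 17 were highest there, with a median of 0.59. Of 36 initiation factors 28 lay above, with a median of 0.22, and of 10 elongation factors 8, with a median of 0.14. By contrast, 32 of 60 ribosome biogenesis genes lay above, with a median of 0.01, and 7 of 12 genes of RNA polymerase I and its factors, with 0.04. Regulators of growth and of ribosome synthesis had 9 of 23 above and a median of -0.03, and ribosome quality control genes 4 of 16 and -0.17. The background in WT 4 was 51.2% of all genes above their mean, and 79.6% of the short genes outside the set. The lists were not matched for transcript length.

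None of these lists had a gene called by limma between the genotypes. At an unadjusted p of 0.05, 0 of 36 initiation factors, 0 of 10 elongation factors and 0 of 12 genes of RNA polymerase I passed. The poly(A)-binding protein gene Pabpc1, 1 of the TOP genes, had 5342 ± 1169 normalized counts in WT and 4099 ± 386 in Ndp KO (SD, n = 4 each; log2 difference -0.36, limma adjusted p = 0.895). Gnl3, a nucleolar GTP-binding protein of ribosome assembly, had 646 ± 179 and 429 ± 17.2 (log2 difference -0.55, limma adjusted p = 0.895). Mdm2, the p53 ubiquitin ligase that free Rpl5 and Rpl11 bind, had 3536 ± 883 and 4808 ± 538 (log2 difference 0.47, limma adjusted p = 0.895). Gtpbp2 and Nemf, both of the rescue of stalled ribosomes, had log2 differences of -0.34 and -0.33 (limma adjusted p = 0.895 for each). The unadjusted p was under 0.05 for these 5 genes, and none passed the adjustment. They were 1 of 21 TOP genes, 1 of 60 ribosome biogenesis genes, 1 of 23 regulators and 2 of 16 quality control genes. Of all genes tested by limma, 3.1% had such a p as higher and 2.47% as lower in Ndp KO.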

How the data were processed

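RNA of sorted cochlear hair cells was measured in 4 WT and 4 Ndp KO libraries, grouped by the genotype label. Per the labels' protocols, SMART-Seq v4 gave full-length cDNA and Nextera XT the libraries, which do not mark the strand. The authors deposited 1 table of normalized counts (a signal, in which each library's counts were divided by a single size factor, judged from the values), with log2 fold changes and p-values of their own DESeq2 comparison, per the file headers. The build was mm10, and DESeq2 1.26.0, Salmon 0.14.2 and bcl2fastq 2.20 are listed without roles, per the submitters' processing notes. How reads with several possible origins were assigned is not stated there.

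Dividing each library's values by the step between them gave whole numbers for 100% of 202744 values, within 1e-06. They are called reads here, but they may be rounded estimates. Total reads per library were 35077950 to 48329827. Reads carried no molecular identifiers, so intervals cover counting error only. The test was limma 3.58.1 (R 4.3.3; trend, two-sided) on log2(normalized count + 1) for 18203 genes with at least 10 normalized counts in at least 4 libraries, with Benjamini-Hochberg adjustment over all of them and a threshold of 0.05. Adding 1 understates the change of low genes. Added count tests on the recovered reads, edgeR 4.0.16 and DESeq2 1.42.0, called 0 and 34 genes in all. Scripts were tested on simulated data.

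Gene copies were found by aligning member coding sequences to GENCODE vM21 transcripts with blastn. The members and lists were chosen with earlier results of these data known, so lists are described by counts and medians without a test. Named genes were Ndp, Rps2, members with fixed roles, the 5 smallest p-values of each subunit, the 3 highest and 3 lowest levels per length, members outside the core, any called or non-overlapping member, and, of each list, up to 2 genes with the smallest p. Rpl4, Rps28, Rps21, Rpl28, Rps15, Rps7 and the named copies were chosen after their values were seen. Rpl3l, Rpl10l and Rpl39l were not analysed here. Replicate numbers follow accession order and pair nothing. Alternatives covered pseudocounts of 0.1 and 5, other minimums, other scalings, other tests, single libraries left out, WT 2 and Ndp KO 2 left out, and, chosen after seeing the data, members summed with their copies.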

Additional observations from a re-analysis of the deposited data

Results flagged for a closer look

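Of 80 groups of 4 libraries examined (member shares and ratios, and each named gene within a genotype), 3 had 1 library far from the other 3, and chance alone gives about 1 in 20. Rps2 in WT 4 had 23036.9 normalized counts, while the other WT libraries had 9429 to 11656. Rpl5 in Ndp KO 1 had 1565.58, while the other Ndp KO libraries had 1236 to 1278. Summed with its near-identical copies, Rpl5 had 10740.8 in Ndp KO 1, inside the range of 10523.5 to 12573 in the other Ndp KO libraries. Rps19bp1 in Ndp KO 3 had 626.144, while the other Ndp KO libraries had 849 to 880. The cause was not tested.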

How the results depend on the processing

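No ribosomal protein gene was called under any of the 19 alternatives with a test. The count of all genes called was 1 and became 0 with a pseudocount of 0.1, a minimum of 5 CPM, edgeR, and without the shared title date, and 34 with DESeq2. Leaving out single libraries gave 0 to 2 genes. The median member difference of -0.12 ranged from -0.39 to -0.12 over the settings that keep all libraries or drop the shared date, and from -0.35 to 0.15 when single libraries were left out. It was above 0 only without WT 4, where Rpl7 became 0.0101, Rps10 0.0289, Rps2 0.0195 and Rps4x 0.00912. Over single libraries left out these differences ranged from -0.32, -0.57, -0.41 and -0.37 to those values. The ranges were -0.40 to -0.02 for Rpsa, -0.28 to -0.04 for Rpl6, -0.46 to -0.13 for Rpl10a, -0.63 to -0.21 for Rpl21, -0.52 to -0.21 for Rpl29 and -0.88 to -0.45 for Rps12. Without the shared title date Rpl10a became -0.54, Rpl21 -0.82, Rpl6 -0.34, Rpl7 -0.39, Rps10 -0.62, Rps2 -0.47, Rps4x -0.43 and Rpsa -0.47. The median excess of WT 4 over the mean of the other libraries was 1.04 in log2 units and stayed between 0.96 and 1.13. No paired analysis was possible because the replicate numbers follow accession order and the columns carry none. Single-library values have no edgeR or DESeq2 counterpart. At 4 libraries a genotype, with a median SE of 0.27, small differences of single members were not detectable.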
